A study of Sus scrofa with 96 samples.

Results

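Articular cartilage of knees with a reconstructed anterior cruciate ligament (ACL) was compared with cartilage of control knees by RNA sequencing 52 weeks after surgery. The libraries were chosen by tissue and group from the sample labels, and 24 of the 96 libraries of the series belonged to the comparison, 12 from reconstructed knees (RECON) and 12 from control knees (CON). All animals were adolescent Yucatan minipigs, a small pig breed whose knee is large enough for human surgical procedures. In RECON knees the ligament was cut and replaced with a bone-patellar tendon-bone allograft, that is, a tendon graft from donor animals with bone at both ends. CON knees were the intact opposite knees of operated animals, 4 from each surgical group, so that they came from animals that had undergone surgery on the other side, and no sham operation or unoperated animal was included. The remaining cartilage groups served for comparison: in ACLT knees the ligament was cut and left untreated, and in REPAIR knees it was cut and repaired with a scaffold bridging the ends. The cartilage came from the posterior part of the medial femoral condyle and was separated from the underlying bone.

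Articular cartilage is a tissue without blood vessels in which a single cell type, the chondrocyte, maintains a matrix of collagen and proteoglycan. Rupture of the ACL leads in many patients to posttraumatic osteoarthritis, in which this matrix is lost over years, and reconstruction restores the stability of the joint but is not known to prevent the disease. Synovium, the lining of the joint, borders the cartilage and holds fibroblasts, macrophages and vessels, which cartilage lacks.

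The values were reads assigned to transcripts, and the files do not pair the transcript identifiers with gene names, so no gene, pathway or cell type marker was named here. The tissue label could therefore not be checked against marker genes, and it was described only by how the transcripts differed between the cartilage and synovium libraries of the ACLT and REPAIR knees, which were not part of the comparison. Of the 26159 transcripts tested, 1155 were at least 4-fold higher in cartilage than in synovium in those knees and 1383 at least 4-fold higher in synovium (edgeR quasi-likelihood test, adjusted p under 0.05). Transcripts of the first kind took 28.7% to 46.5% of the counts of the CON libraries and 26.7% to 49.7% of those of the RECON libraries. Transcripts of the second kind took 0.633% to 3.29% in CON and 0.606% to 2.71% in RECON. In tissue libraries such as these, fewer cells of a type and less RNA per cell cannot be told apart.

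The depth of the libraries overlapped between the groups. Total counts ran from 11491895 to 18365836 in CON and from 9043812 to 20189070 in RECON, with a mean of 15129000 ± 3009300 in RECON and 14998000 ± 2010000 in CON (SD, n = 12 each; permutation test, two-sided p = 0.90). The share of counts taken by the 10 most abundant transcripts was 34.0% ± 4.21 in RECON and 32.9% ± 3.38 in CON (permutation test, two-sided p = 0.49). Within CON and within RECON no library was a copy of another (66 pairs in each group). The transcript that took the most reads, 4883 bases long, held between 4.82% and 21.1% of the counts in CON and between 7.01% and 24.7% in RECON. It did not pass the test (log2 fold change 0.23 ± 0.28 SE), and its range within each group was wider than the difference between the group means, 145047 CPM in RECON and 123923 CPM in CON.

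Few transcripts separated RECON from CON cartilage in the main fit. With edgeR's quasi-likelihood test over the 47 cartilage libraries and Benjamini-Hochberg adjustment, 41 of 26159 transcripts (0.157%) passed an adjusted p of 0.05, 19 higher in RECON (0.0726%) and 22 lower (0.0841%). At an unadjusted p under 0.05 there were 2802 transcripts (10.7%), 1416 higher and 1386 lower. The median log2 fold change over all transcripts tested was 0.0005. In the plot of all tested transcripts, the called transcripts lay on both sides of zero.

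**Figure D1:**
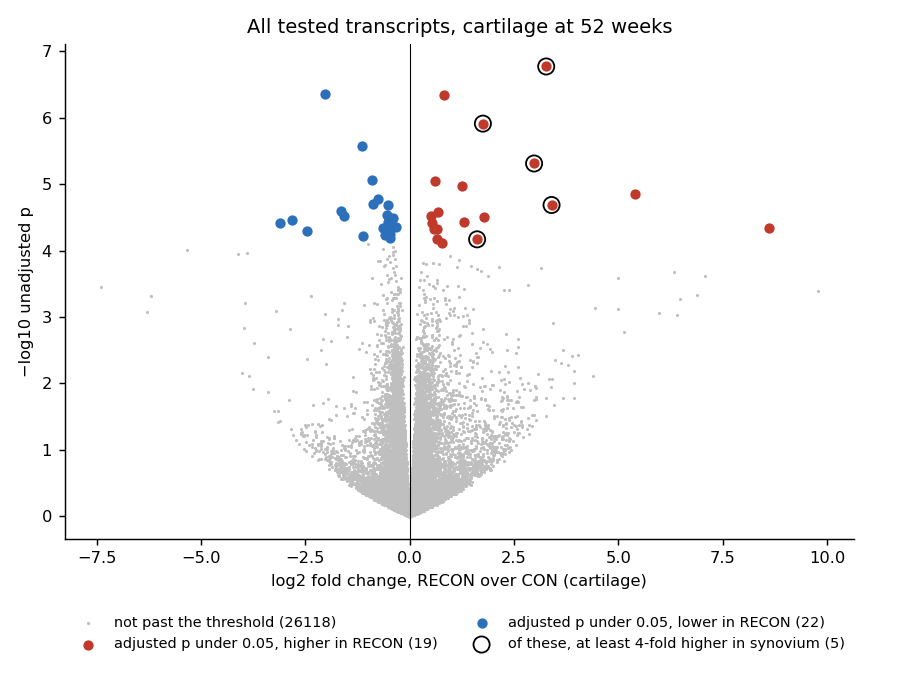
The log2 fold change of RECON over CON cartilage (horizontal axis) is plotted against −log10 of the unadjusted p (vertical axis) for all 26159 transcripts tested, with red points for the 19 called higher, blue points for the 22 called lower and rings around 5 that were at least 4-fold higher in synovium. All 5 ringed points lie to the right of zero, and the fitted value of a transcript without a count in a group depends on the prior count.

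The number called differed strongly between fits. With only the 24 CON and RECON libraries, 7 transcripts passed, 6 of them among the 41. With the RNA integrity number of each library as a covariate 7 passed, all among the 41, and the other 34 did not. The paper lists a lower mean integrity number for cartilage of all operated knees together than for control cartilage. Its mean RNA concentration and absorbance ratios were higher in the operated knees. RNA quality may thus go partly with the contrast, and how far it bears on the lost calls was not tested. Limma-voom called 1 transcript over the same 47 libraries and 0 over the 24 (2677 at an unadjusted p under 0.05). A set of 4 CON and 4 RECON knees came from the same 4 animals, and with the animal as a random block limma-voom again called 1 transcript over the 47 libraries and 0 over the 24 (2811 at an unadjusted p under 0.05). DESeq2 called 198, with 33 of the 41 among them and no adjusted p for the other 8. With 2 RUVr factors, which stand for unwanted variation, DESeq2 called 998, and edgeR with all 8 groups of both tissues in 1 fit called 304. The paper's own tests used DESeq2 with RUVSeq adjustment. All 41 kept their direction in each of the 16 alternatives that gave them a value. The p-values measure the spread between knees, some of which shared an animal.

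No transcript separated the groups completely. The CPM, that is, read counts scaled to library size and composition by TMM, of the CON and RECON libraries overlapped for each of the 26159 transcripts (0% without overlap). For 27 of the 41 called transcripts all 12 RECON libraries lay on 1 side of the CON median, and for 36 at least 11 did. At least 6 RECON libraries lay above the highest CON library for 18 of the 19 transcripts that rose. At least 6 lay below the lowest CON library for 10 of the 22 that fell. A wide CON range lowers such a count, and CON libraries beyond every RECON library were not counted over the 41. Whether separation differed between the directions was therefore not tested. The counts of RECON libraries describe transcripts that were chosen by the same contrast and test nothing further. In the 4 animals with a knee in both groups, 23 of the 41 differed in the called direction in all 4 animals, 15 in 3 and 3 in fewer.

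The transcript with the smallest p was ENSSSCT00000007206.4, which is 517 bases long and higher in RECON. In CON it ran from 3.25 to 9.58 CPM with a median of 5.36, and in RECON from 5.02 to 198 CPM with a median of 40.7. Of the 12 RECON libraries 10 lay above every CON library, while RECON 11 and RECON 5 lay inside the CON range. The mean was 58.8 ± 56.2 CPM in RECON and 6.05 ± 2.17 in CON (SD, n = 12 each), a log2 fold change of 3.27 ± 0.53 (SE; edgeR adjusted p = 0.0040). The spread within RECON was thus much wider than within CON, and without RECON 7, the highest library, the log2 fold change was still 2.93 and the RECON mean 46.1 CPM. Within animals it went from 9.58 to 198, from 3.25 to 59.5 and from 3.92 to 6.58 CPM in 3 of the 4, and from 7.50 to 5.02 CPM in the fourth. It was a transcript of synovium by level, with a log2 difference of −4.09 ± 0.37 (SE) for cartilage minus synovium in the ACLT and REPAIR knees.

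ENSSSCT00000004890.5, with 6601 bases, rose less but more evenly. In CON it ran from 73.8 to 162 CPM with a median of 113, and in RECON from 118 to 293 CPM with a median of 194. All 12 RECON libraries lay above the CON median and 9 above every CON library. The mean was 201 ± 51.4 CPM in RECON and 113 ± 27.7 in CON (SD, n = 12 each), a log2 fold change of 0.83 ± 0.14 (SE; edgeR adjusted p = 0.0040). It rose in all 4 animals, from 115 to 237, 134 to 174, 162 to 293 and 84.1 to 180 CPM. Per length, this transcript and ENSSSCT00000007206.4 stood at similar levels in CON, with median TPM, a level that also divides by transcript length, of 41.9 and 38.6, but at 77.4 and 274 TPM in RECON.

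ENSSSCT00000086389.1, with 6732 bases, showed the lowest p among the transcripts that fell. In CON it ran from 1.95 to 24.8 CPM with a median of 10.6, and in RECON from 1.13 to 4.62 CPM with a median of 3.24. Every RECON library lay below the CON median, but 9 of them lay within the CON range, since CON 5, CON 2 and CON 9 were as low as RECON libraries. The mean was 2.91 ± 1.25 CPM in RECON and 11.9 ± 7.73 in CON (SD, n = 12 each), a log2 fold change of −2.03 ± 0.34 (SE; edgeR adjusted p = 0.0040). Here the spread was wide in CON and narrow in RECON, the reverse of ENSSSCT00000007206.4. It was lower in the RECON knee of 3 animals, most clearly from 18.7 to 3.80 and from 24.8 to 4.62 CPM, and stood at 1.95 and 1.99 CPM in the fourth.

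ENSSSCT00000032033.4, with 1680 bases, fell from a CON range of 1.84 to 9.12 CPM with a median of 5.62 to a RECON range of 1.11 to 3.57 CPM with a median of 2.66. Every RECON library lay below the CON median, and CON 6 and CON 5 lay inside the RECON range. The mean was 2.50 ± 0.806 CPM in RECON and 5.56 ± 2.01 in CON (SD, n = 12 each), a log2 fold change of −1.15 ± 0.21 (SE; edgeR adjusted p = 0.014). It was lower in RECON in 3 of the 4 animals and went from 1.84 to 3.46 CPM in the animal of CON 6. All 4 of these transcripts passed the threshold in each of the 24 fits that left out a CON or RECON library, and 2 others did so too. None of the 4 passed with the replicate number as a block, with limma-voom over the 24 libraries with or without the animal as a random block, or with the animal as a fixed block over the 4 animals, where the log2 fold changes were 2.29, 0.84, −1.62 and −0.43 in the order above. Over the 47 libraries limma-voom with the animal as a random block called only ENSSSCT00000004890.5 (adjusted p = 0.0037), with adjusted p = 0.071, 0.060 and 0.069 for the other 3. ENSSSCT00000032033.4 also did not pass with the RNA integrity number as a covariate or with only the CON and RECON libraries.

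**Figure D2:**
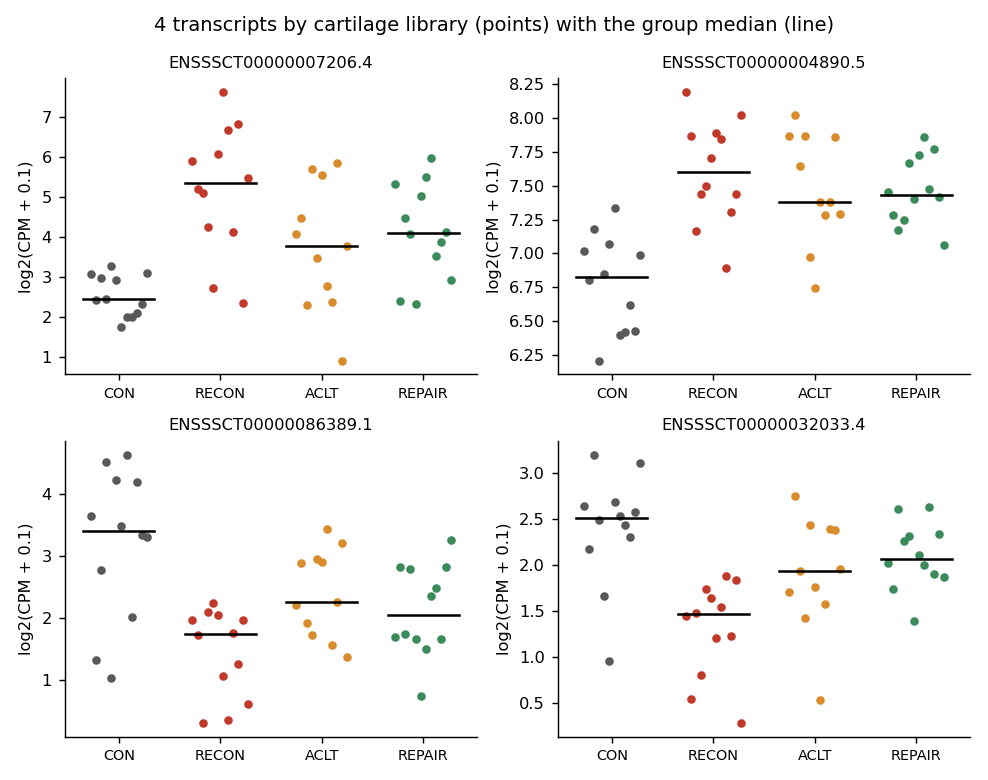
Each point is a cartilage library and each line the group median, in log2(CPM + 0.1) on the vertical axis, for the 2 transcripts with the smallest p that rose (top) and the 2 that fell (bottom), in CON, RECON, ACLT and REPAIR. For ENSSSCT00000007206.4, 10 RECON libraries lie above all CON libraries, and the ACLT and REPAIR medians lie between those of CON and RECON in all 4 panels.

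The sizes of the changes were then described over all called transcripts apart from a pair with almost no counts in CON. The transcripts that rose had a median fold change of 1.78 (range 1.42 to 10.6, n = 17) and lengths of 517 to 6601 bases, and those that fell a median of 1.62 (range 1.24 to 8.63, n = 22) and lengths of 1235 to 8871 bases. Changes of at least 2-fold were fitted for 8 that rose and 8 that fell, and changes under 1.5-fold for 2 that rose and 10 that fell. Of the 12 changes under 1.5-fold, 11 were in the highest of 4 equal classes of level and 1 in the class below it. The classes were set by the mean CPM in the ACLT and REPAIR cartilage libraries. The median SE of the log2 fold change was 0.75 in the lowest class and 0.11 in the highest, and the classes held 6, 5, 9 and 21 called transcripts from lowest to highest. Thus 0.0917% of the lowest class and 0.321% of the highest were called. Counts in every one of the 24 libraries were found for 34 of the 41. By length, 22 of 10698 transcripts over 1000 and up to 3000 bases were called (0.206%), 17 of 13966 longer ones (0.122%), 2 of 1414 over 300 and up to 1000 bases (0.141%) and 0 of 81 up to 300 bases, of which 5 had an unadjusted p under 0.05 by edgeR.

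A transcript of 3755 bases had no count in any CON library. In RECON it was at 0 in 5 libraries and between 2.27 and 7.59 CPM in the other 7, with 554 counts in all. Against a floor of 3 counts over the CON group the RECON mean was 191-fold higher (edgeR adjusted p = 0.038). That floor covers counting error in CON only and not the spread between knees. The transcript was called in 7 of the 24 fits that left out a library. It reached 7.53 CPM in an ACLT library and 6.96 CPM in a REPAIR library, and in synovium 11.5 CPM in a CON library and 9.14 CPM in a RECON library. In the 4 animals with both knees, the RECON knee held it in 2. Another transcript, 8615 bases long, had 2 counts in 1 CON library and 151 counts in 8 RECON libraries, a ratio of 73.2 (95% Poisson interval 19.9 to 610, which covers counting error only).

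Wide spread in a single group marked several of the transcripts that fell. A transcript of 1235 bases ran from 12.4 to 495 CPM in CON with a median of 41.7, and from 7.86 to 70.5 CPM in RECON with a median of 18.4. In CON, 4 libraries lay above every RECON library: CON 2, CON 6, CON 7 and CON 9, at 133, 299, 495 and 293 CPM. Its log2 fold change was −2.47 ± 0.55 (SE; edgeR adjusted p = 0.039). A transcript of 6552 bases ran from 24.5 to 321 CPM in CON with a median of 37.2, and from 25.6 to 53.7 CPM in RECON with a median of 31.4. All RECON libraries lay inside the CON range and 8 of 12 below the CON median, so that its log2 fold change of −1.56 ± 0.34 (SE; edgeR adjusted p = 0.038) went with a CON mean of 102 CPM, far above the CON median. Its highest libraries were again CON 2, CON 6, CON 7 and CON 9, at 176, 158, 321 and 282 CPM. A transcript of 1456 bases, with the largest fall among those called (8.63-fold), was also highest in these libraries, at 3.53, 8.75, 6.94 and 2.47 CPM. These falls thus shared the same high CON knees and were not separate observations. A transcript of 2484 bases instead had narrow ranges, with 58.7 to 80.8 CPM in CON and 47.1 to 71.2 CPM in RECON, 9 RECON libraries below every CON library and a log2 fold change of only −0.31 ± 0.07 (SE; edgeR adjusted p = 0.038).

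Transcripts that were higher in synovium than in cartilage in the ACLT and REPAIR knees leaned toward RECON. Those knees had been operated on, so transcripts raised in synovium by surgery could enter the class more readily. That part was not tested. Of the 1383 tested, 5 were called higher and 0 lower (0.362% called), and at an unadjusted p under 0.05 258 were higher and 16 lower. With all 8 groups of both tissues in 1 fit, 89 of the 1383 were called higher and 4 lower. Over all 30447 transcripts tested in that fit, 232 were called higher and 72 lower. The synovium libraries enter the estimate of spread there. Their median log2 fold change was 0.48, beside 0.0005 over all transcripts tested. The 5 called ones rose by 3.07-fold to 10.6-fold, and their log2 differences for cartilage minus synovium ran from −5.08 to −2.06. Of the 1155 transcripts higher in cartilage, 1 was called higher and 2 lower (0.26%), with 65 higher and 134 lower at an unadjusted p under 0.05 and a median log2 fold change of −0.08. The 21342 transcripts of neither kind had a median of −0.004, with 13 called higher and 18 lower (0.145%).

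The lean was not shared by all RECON knees. The mean log2 CPM of the 1383 transcripts ran from −0.15 to 0.85 in CON with a median of 0.14, and from −0.22 to 2.08 in RECON with a median of 0.74. The highest values were 2.08 in RECON 7, 1.47 in RECON 10, 1.13 in RECON 1, 1.06 in RECON 8 and 0.94 in RECON 2, all 5 above the highest CON library. RECON 9, RECON 11, RECON 5 and RECON 4 lay at −0.22, −0.09, −0.07 and 0.11, at or below the CON median, so that the groups overlapped widely. RECON 7 also had the lowest mean of the 1155 transcripts higher in cartilage, at 3.55, below the lowest CON library at 3.82. RECON 12 lay below it too, at 3.68, while its mean of the 1383 transcripts was 0.70, inside the CON range. Without RECON 7 the median log2 fold change of the synovium transcripts was 0.33, with 148 higher and 20 lower at an unadjusted p under 0.05, and without any other CON or RECON library it was between 0.41 and 0.55. RECON 7 was the highest RECON library for 8 of the 19 called transcripts that rose, and RECON 9 the lowest for 7 of them. Marker genes of synovial cells could not be named here, and the part of other tissue in the cartilage samples was not tested.

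**Figure D3:**
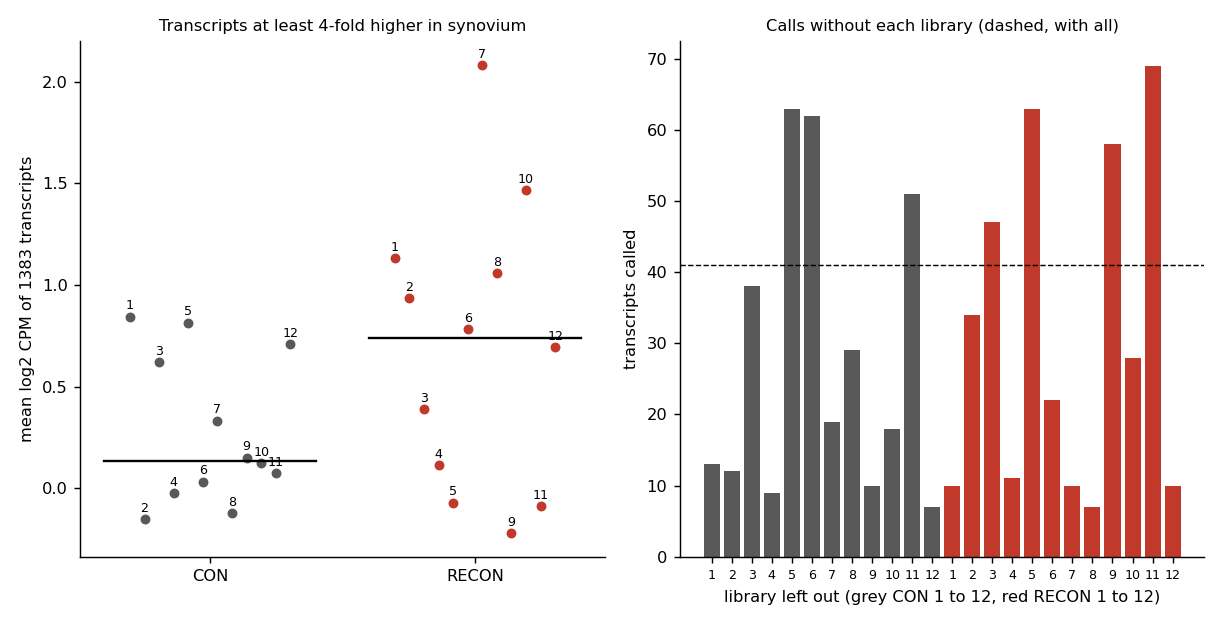
Left, the mean log2 CPM (vertical axis) of the 1383 transcripts higher in synovium is shown for each CON and RECON cartilage library, labelled by its replicate number, with the group median as a line. Right, bars give the number of transcripts called between RECON and CON when the library on the horizontal axis was left out, from 7 to 69, with a dashed line at 41.

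Single libraries weighed on the number of calls. When each CON or RECON library was left out in turn, between 7 and 69 transcripts were called, with a median of 20.5. Leaving out RECON 8 or CON 12 left 7 calls, and leaving out CON 4 left 9. Leaving out RECON 11 gave 69 calls, RECON 5 63, CON 5 63 and CON 6 62. RECON 5 and RECON 11 were also the libraries inside the CON range for ENSSSCT00000007206.4, and RECON 12 was the lowest RECON library for 7 of the 22 transcripts that fell.

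The called transcripts were also described in the other operated groups. ACLT and REPAIR knees share the CON libraries with RECON, and the 41 were chosen for their difference between RECON and CON, so that the values are only set side by side and no likeness of the groups was read from them. For ENSSSCT00000007206.4 the median was 13.6 CPM in ACLT and 17.1 CPM in REPAIR, and the log2 fold change over CON 1.84 ± 0.51 in ACLT and 1.95 ± 0.51 in REPAIR (SE), neither past the threshold (edgeR adjusted p = 0.31 and 0.12). For ENSSSCT00000004890.5 they were 0.72 ± 0.14 in ACLT and 0.67 ± 0.14 in REPAIR (SE; edgeR adjusted p = 0.13 and 0.036). For ENSSSCT00000086389.1 they were −1.04 ± 0.34 and −1.31 ± 0.34, and for ENSSSCT00000032033.4 −0.51 ± 0.22 and −0.37 ± 0.21 (SE), none past the threshold. Of the 41, 7 passed the adjusted threshold between REPAIR and CON, where 23 of 26159 transcripts did (0.0879%), and 0 passed it between ACLT and CON, where no transcript did (0%; edgeR, 1463 at an unadjusted p under 0.05).

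**Figure D4:**
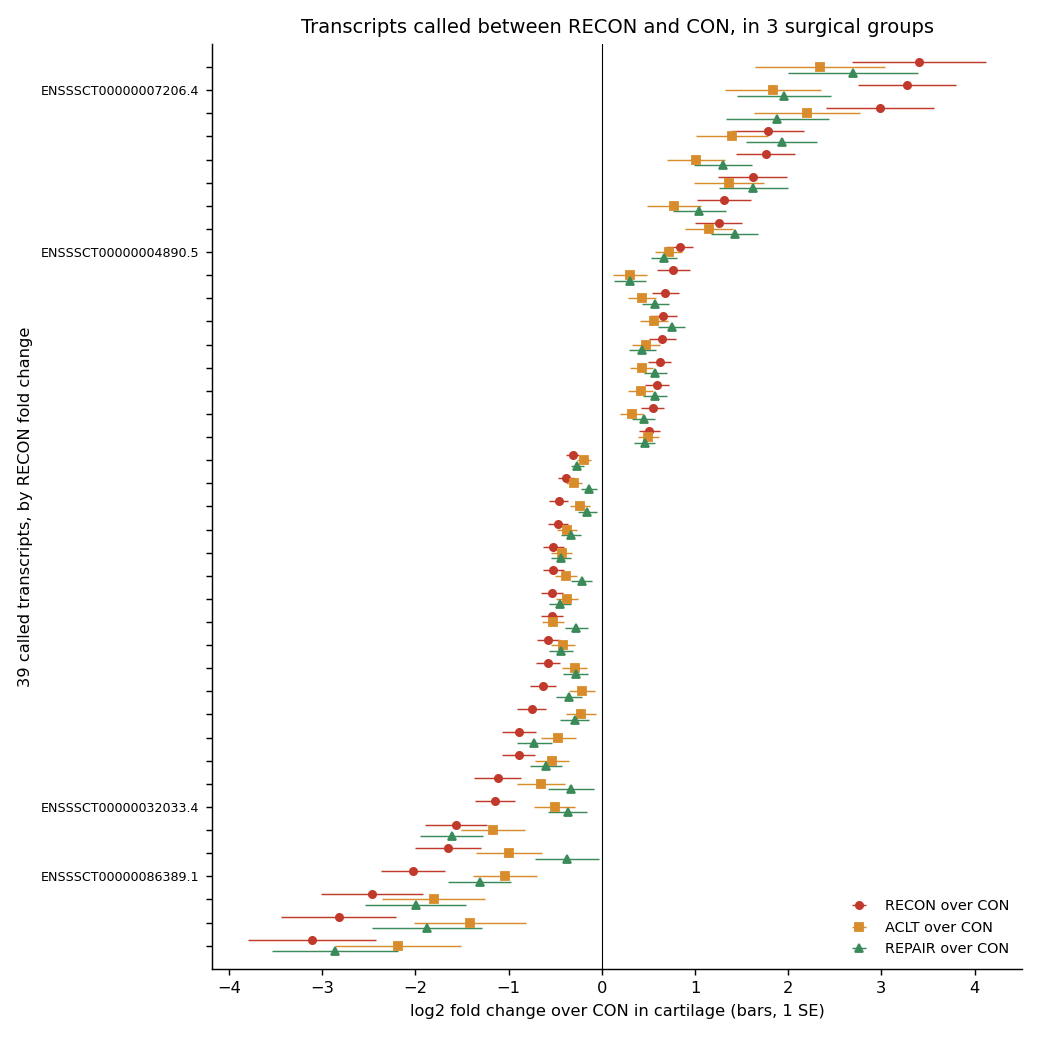
Log2 fold changes over CON in cartilage (horizontal axis, bars of 1 SE) are given for RECON, ACLT and REPAIR for 39 of the 41 called transcripts, ordered by the RECON value, with the 4 identifiers of the text marked. The pair with at most 3 counts in CON is not drawn. All points of a transcript lie on the same side of zero, which the shared CON libraries and the choice of the transcripts favour.

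Reconstruction was then compared directly with the other procedures. Between RECON and ACLT cartilage, edgeR called 0 of 26159 transcripts (0%), with 731 at an unadjusted p under 0.05, and DESeq2 called 4, all higher in RECON. Between RECON and REPAIR, edgeR called 0 (0%), with 1828 at an unadjusted p under 0.05, and DESeq2 called 33, 20 higher and 13 lower. For ENSSSCT00000007206.4, RECON exceeded ACLT by a log2 fold change of 1.43 ± 0.51 and REPAIR by 1.32 ± 0.49 (SE; edgeR adjusted p = 1.00 and 0.46). For ENSSSCT00000032033.4 the differences were −0.64 ± 0.22 from ACLT and −0.78 ± 0.21 from REPAIR (SE; edgeR adjusted p = 1.00 and 0.27). None of these differences passed the threshold, which does not show that the procedures gave equal levels.

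The change in cartilage was finally set against the change in synovium of the same knees. Over the 94 libraries of both tissues, RECON differed from CON in synovium for 5216 of 30447 transcripts (17.1%), and the difference between tissues, the change in cartilage minus that in synovium, passed for 2418 (7.94%). Of the 41 called transcripts, 12 passed in synovium. Of these, 8 were higher in both tissues, 2 lower in both and 2 opposite. The difference between tissues passed for 21 of the 41, but the cartilage values that chose the 41 are part of it, and nothing was read from that count. In 15 of the 21 the fitted changes had opposite signs, although the change in synovium itself passed for only 2 of these 15.

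The 4 transcripts printed by identifier fell into both kinds. ENSSSCT00000007206.4 rose in both tissues, in synovium from a median of 113 CPM (range 66.2 to 438) in CON to 698 CPM (range 252 to 1539) in RECON, a log2 fold change of 2.29 ± 0.45 (SE; edgeR adjusted p = 8.1e-05), and the difference between tissues did not pass (1.01 ± 0.61 SE, edgeR adjusted p = 0.35). ENSSSCT00000004890.5 rose in cartilage, while in synovium its median was 387 CPM in CON and 394 CPM in RECON (log2 fold change −0.01 ± 0.13 SE), and the difference between tissues passed (0.86 ± 0.18 SE, edgeR adjusted p = 0.00087). ENSSSCT00000086389.1 fell in cartilage, while its synovium median was 2.47 CPM in CON and 1.98 CPM in RECON (log2 fold change −0.26 ± 0.26 SE), and the difference passed (−1.75 ± 0.37 SE, edgeR adjusted p = 0.0012). For ENSSSCT00000032033.4 the synovium change was −0.52 ± 0.25 and the difference −0.62 ± 0.36 (SE), and neither passed (edgeR adjusted p = 0.16 and 0.32).

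The transcript of 1235 bases that fell in cartilage rose in synovium. There it ran from 3.30 to 132 CPM in CON with a median of 9.56, and from 21.6 to 115 CPM in RECON with a median of 61.5. Its log2 fold change in synovium was 1.57 ± 0.50 (SE; edgeR adjusted p = 0.020), and the difference between tissues was −4.01 ± 0.72 (SE; edgeR adjusted p = 0.00017). The groups overlapped in both tissues. Of the 5 called transcripts that were higher in synovium by level, 4 were also called higher in synovium. The other had a log2 fold change of 0.54 ± 0.40 there (SE; edgeR adjusted p = 0.42). The difference between tissues passed for 2 of the 5, both with the greater change in cartilage.

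**Figure D5:**
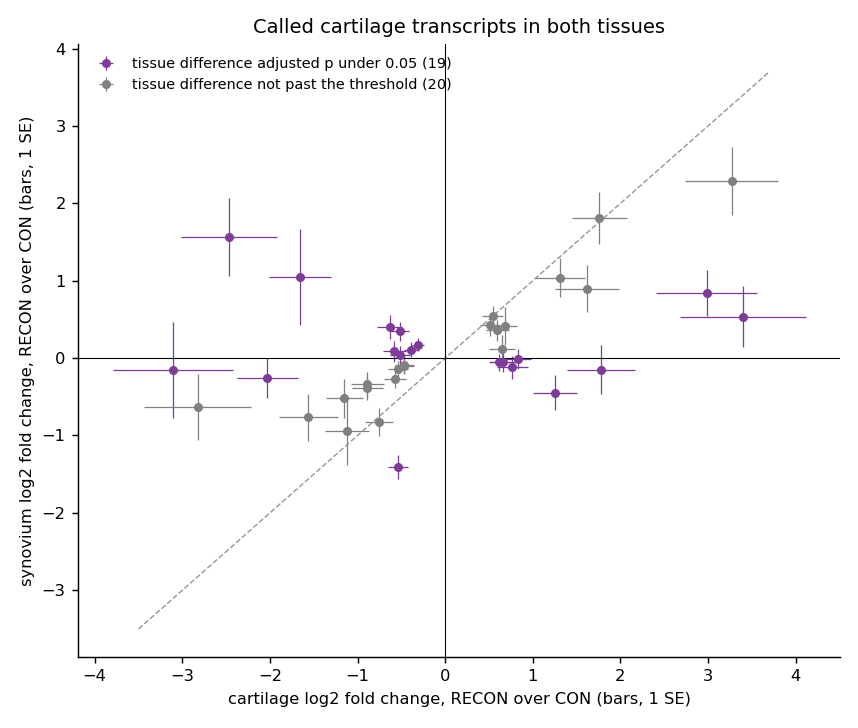
The log2 fold change of RECON over CON in cartilage (horizontal axis) is plotted against that in synovium (vertical axis), with bars of 1 SE, for 39 called transcripts, the pair with at most 3 counts in CON left out. Points on the dashed line changed equally, and purple points mark transcripts whose difference between tissues passed an adjusted p of 0.05, several of which lie near zero on the vertical axis.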

How the data were processed

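Per the labels, each library was quantified on its own with Salmon 1.8.0 against Ensembl transcripts of Sscrofa11.1, and the authors deposited estimated counts, which carry no scaling between libraries, and TPM values, which are divided by effective length. Salmon divides reads between similar transcripts, so the counts of isoforms and paralogs are uncertain. The estimated counts were rounded. Knee ACLT 12 is missing from the study's list of knees and was left out. Transcripts were kept by filterByExpr (minimum count 10), which removed 20136 of 46295, and tested with edgeR 4.0.16 (TMM, glmQLFit, glmQLFTest) in R 4.3.3, with 4 groups over 47 cartilage libraries or 8 groups over 94 libraries of both tissues. Benjamini-Hochberg adjusted p under 0.05 was the threshold. CPM values are TMM-scaled counts, so a library's composition can shift them. CPM of both tissues were scaled together where synovium is given. Library measures were compared with two-sided permutation tests (100000 resamples, scipy 1.17.1). Fold changes are those of the fit with edgeR's prior count. Each SE of an edgeR log2 fold change is its size divided by the square root of the F statistic of the test.

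The members and lists were chosen with earlier results of these data known. The naming rule set a minimum mean of 1 CPM and took, among called transcripts, the 12 smallest p and 3 further large changes in each direction. It also took the 5 most abundant of all transcripts tested, called or not. As no table pairs the 46295 identifiers with the 15623 gene symbols at hand, gene lists and markers were not analysed here, and 2 identifiers per direction, those with the smallest p, are printed. Other transcripts described were chosen after their values were seen. Replicate numbers did not pair the knees (mean correlation of deviations −0.03 for the same number), whereas 4 CON and 4 RECON knees came from the same animals (mean correlation 0.11). In data simulated for RECON against CON in cartilage with 199 changed among 24842 transcripts tested, 25 of 67 changed 1.5-fold, 42 of 67 changed 2-fold and 50 of 65 changed 4-fold were recovered, and 13 unchanged transcripts were called. The changed transcripts were drawn only from those with a mean of at least 1 CPM, and the simulated libraries shared no animals. Recovery at lower levels was not tested. Alternatives used DESeq2 1.42.0 and limma 3.58.1. The animals, sexes and RNA integrity numbers used in alternatives came from the study's supplement.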

Additional observations from a re-analysis of the deposited data

Results flagged for a closer look

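The response of RECON against CON differed between cartilage and synovium for 2418 of 30447 transcripts by the test of the difference itself, an interaction term in 1 fit of both tissues (edgeR adjusted p under 0.05), 1174 with the larger value in cartilage and 1244 with the larger value in synovium. Of the 4 transcripts printed by identifier, 2 were among them. The 4 were chosen by their change in cartilage, which is part of the difference, so nothing was read from that count. ENSSSCT00000004890.5 had a difference of 0.86 on the log2 scale (cartilage minus synovium), with a rise in cartilage and a log2 fold change of −0.01 in synovium. ENSSSCT00000086389.1 had a difference of −1.75, with a fall in cartilage and a log2 fold change of −0.26 in synovium. With the knee as a block, so that each knee's tissues were compared with each other, the count was 1461, of which 1253 were among the 2418.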

How the results depend on the processing

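The 41 calls between RECON and CON changed by more than 1.5 times with DESeq2 (198), with DESeq2 and 2 RUVr factors (998, with 36 of the 41 among them and no adjusted p for the other 5), with only the CON and RECON libraries (7), with all 8 groups in 1 fit (304, 232 higher and 72 lower), with the RNA integrity number as a covariate (7) and with an offset for effective length (26). With the replicate number as a block 0 passed (1992 at an unadjusted p under 0.05), but no sample correlated best with its own number, so the numbers are only names. With the animal as a fixed block over the 4 animals 0 passed by edgeR (788 at an unadjusted p under 0.05). Limma-voom gave 1 with and 1 without the animal block over the 47 libraries, and over the 24 libraries 0 with and 0 without it. All of these voom fits but that with the block over 24 libraries were chosen after seeing the data. DESeq2 size factors (41), a filter on 2 non-zero libraries (38), ACLT 12 added (44) and sex (51) stayed within 1.5 times. Leaving out a library gave 7 to 69 calls, 13 of the 24 fits below and 4 above 1.5 times. For the transcripts higher in synovium the median log2 fold change ran from 0.33 to 0.55 without a library, and for those higher in cartilage from −0.10 to −0.05. The alternatives for these medians were chosen after seeing the data. RECON against ACLT and REPAIR stayed at 0 with edgeR, also with the replicate number as a block (568 and 2249 at an unadjusted p under 0.05), and DESeq2 called 4 and 33. For the difference between tissues, the replicate number as a block gave 1641 and the knee as a block 1461, beside 2418. The causes of these shifts were not tested.

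Of the 16 alternatives, ENSSSCT00000004890.5 passed in 12, ENSSSCT00000007206.4 and ENSSSCT00000086389.1 in 10 each and ENSSSCT00000032033.4 in 7 of the 15 that gave it an adjusted p. None of the 4 changed direction in these or in the 24 fits without a library. In the simulated comparison 13 unchanged transcripts stood beside 117 recovered ones, so the share of false calls was clearly above the 0.05 that the threshold allows. The median SE was 0.75 on the log2 scale in the lowest class of level; other depths were not tested.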
